A study of Drosophila melanogaster with 7 samples.

Results

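The odorant-binding protein genes of Drosophila melanogaster were followed through nuclear RNA of 3 sets of head neurons and RNA of the whole dissected brain. Members were the genes whose symbol in the deposited gene table is Obp followed directly by a digit, and 42 of 15551 fly genes met this rule. OK107 nuclei came from adult heads in which OK107-GAL4 drove unc84-GFP, a tagged nuclear membrane protein, primarily in the Kenyon cells of the mushroom body, a centre for olfactory memory. Tdc2 nuclei carried the same tag under Tdc2-GAL4, primarily in octopaminergic neurons, and R57C10 nuclei carried it under R57C10-GAL4 in all mature neurons. The remaining sample was the dissected brain of adults with all of its cells, for which the labels name no transgene. Nuclei were taken from pooled frozen heads, and no label gives the sex of the flies. The labels list 7 samples and the table holds 6 libraries: OK107 a and b, Tdc2 a and b, 1 of the 2 R57C10 samples, and whole brain. Levels are FPKM, in which the authors scaled each gene's fragments for transcript length and library size, so they can be compared between genes.

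Odorant-binding proteins are small secreted proteins that carry hydrophobic ligands such as odorants and pheromones through the fluid around chemosensory dendrites. In antennae and taste organs they are made chiefly by the support cells of a sensillum rather than by its neurons. Other family members are made outside the chemosensory organs, among them in brain glia and in the male reproductive tract. Gene names carry the cytological position, so members that share a number lie close together, often side by side.

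The Tdc2 and OK107 libraries matched their labels at the driver genes. Tdc2, which encodes a tyrosine decarboxylase, stood at 110.1 FPKM in Tdc2 a and 90.3 FPKM in Tdc2 b, and at no more than 3.01 in the others. ey, at whose locus the OK107 driver is inserted, was at 248 and 259 in OK107 and at no more than 35.9 elsewhere. The neuronal gene elav was between 153 and 277 FPKM in all 6 libraries, with the highest level in R57C10. Another neuronal gene, n-syb, was not highest there. It was at 1096 FPKM in R57C10, 976 and 934 in OK107, 1541 and 1279 in Tdc2 and 1112 in whole brain. Steps between low levels put 1 read on a transcript of 1 kilobase at 0.0172 (whole brain) to 0.043 FPKM (Tdc2 a). These steps are estimates, because between 61.0% and 68.6% of the low values lay within 0.2 of a whole read. OK107 a, OK107 b and Tdc2 a have the earlier of 2 date tags in their column names, and Tdc2 b, R57C10 and whole brain the later. Of the 6, only OK107 a and Tdc2 a lacked spike-in RNA. Nuclei came from whole heads and the brain was dissected, so tissue, marked cells and RNA source differ together between tagged nuclei and whole brain and cannot be told apart.

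Most members were low. Of the 42, 10 reached 10 FPKM in at least 1 library, 14 peaked between 1 and 10 FPKM, and 18 stayed under 1 FPKM everywhere. The lowest peak above the 10 FPKM line was 10.2 (Obp57b) and the highest below it was 7.81 (Obp8a). Summed over all members, the level was 209.6 and 221.7 FPKM in OK107 a and b, 339.5 and 388.7 in Tdc2 a and b, 133 in R57C10 and 3040 in whole brain. Whole brain thus held by far the highest summed level, and a single gene, Obp44a, made up 98.2% of it. Without Obp44a whole brain was the lowest: 138 and 145 FPKM in OK107, 214 and 277 in Tdc2, 108 in R57C10 and 55.0 in whole brain.

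Among the 24 members that reached 1 FPKM in any library, 16 (66.7%) were highest in a Tdc2 library, against 17.0% of all 9975 such fly genes. Obp22a, Obp83cd, Obp83ef, Obp99b and Obp19c reached 1 FPKM in Tdc2 alone, so they were bound to be highest there. Obp83g and Obp99d likewise reached it in OK107 alone. Such genes were not counted apart among the 9975. Both Tdc2 libraries lay above both OK107 libraries and R57C10 for 15 of the 24 (62.5%), against 19.8% of all genes. Obp83cd, Obp83ef, Obp99b and Obp19c are among these 15. Whole brain was the lowest library for 15 (62.5%), against 29.1%. Only Obp85a was highest in R57C10, 5 members were highest in OK107, and Obp44a and Obp18a were highest in whole brain.

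**Figure D1:**
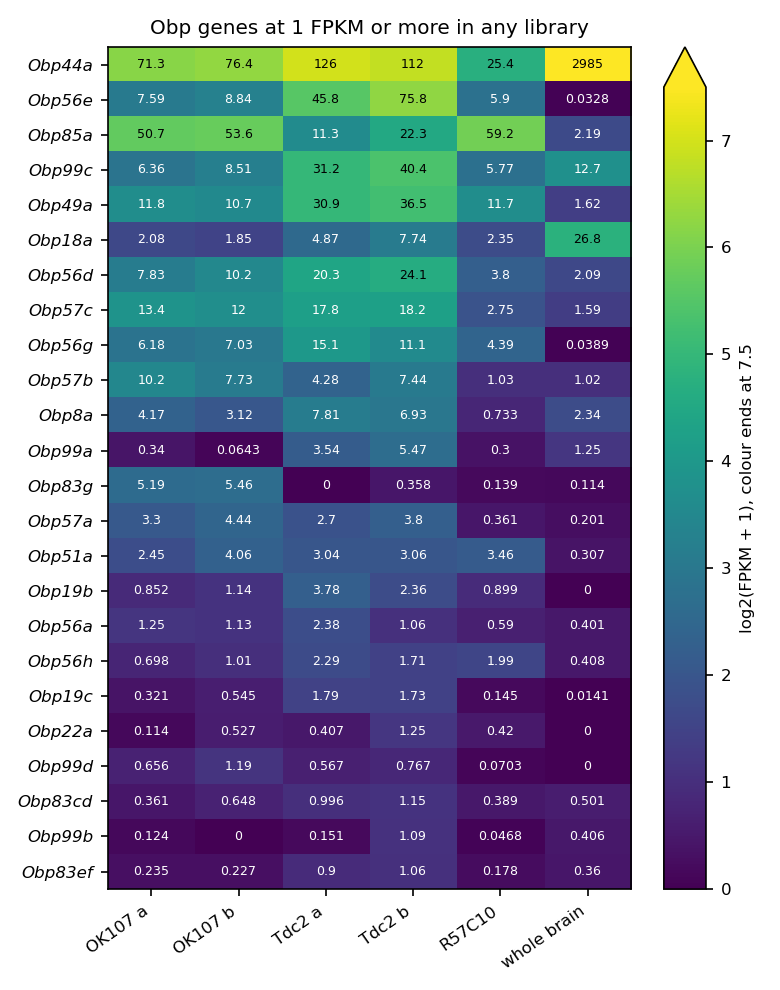
Level of each of the 24 Obp genes that reached 1 FPKM in any library (rows, by highest level) in each of the 6 libraries (columns). Numbers are FPKM, colour is log2(FPKM + 1), and the whole brain value of Obp44a (2985 FPKM) lies beyond the end of the colour scale.

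Differences between groups were tested in limma on log2(FPKM + 1), a scale that understates the differences of genes at low levels. A gene entered the test with 1 FPKM or more in any 2 of the libraries fitted. It passed at an adjusted p under 0.05 over all genes (Benjamini-Hochberg). The filter kept 19 of the 42 members. The other 23 peaked at no more than 1.25 FPKM, and 5 of them reached 1 FPKM in a single library. Of the 19, Obp83g passed the filter through OK107 alone and Obp19c through Tdc2 alone, so both were bound to differ. In the fits without whole brain Obp99a also passed through Tdc2 alone. It was thus bound to differ between Tdc2 and the other tagged nuclei. R57C10 and whole brain have 1 library each, so their spread was taken to equal that of the OK107 and Tdc2 pairs. The p-values therefore measure only the spread between these samples, which may be technical. Members differed between OK107 a and b by a median of 1.14-fold (15 at 1 FPKM or more in both, at most 1.66-fold), and between Tdc2 a and b by 1.35-fold (18 members, at most 2.26-fold). Fewer cells of a type and less RNA per cell cannot be told apart in these bulk samples.

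Obp44a, which is known from brain glia and binds fatty acids, was the member with the widest range. It was at 71.3 and 76.4 FPKM in OK107 a and b, at 126 and 111.5 in Tdc2 a and b, at 25.4 in R57C10 and at 2985 in whole brain. There it was the 6th most abundant of all fly genes, whereas it ranked 2353rd in R57C10. The groups did not overlap. Its log2 difference from whole brain was -5.32 in OK107 (SE 0.13, adjusted p = 0.000154), -4.64 in Tdc2 (SE 0.13, adjusted p = 0.000421) and -6.82 in R57C10 (SE 0.15, adjusted p = 0.000282). Against R57C10 it was higher by 1.50 in OK107 (SE 0.13, adjusted p = 0.00476) and by 2.18 in Tdc2 (SE 0.13, adjusted p = 0.00185). The difference of OK107 from Tdc2 was -0.68 (SE 0.11, adjusted p = 0.00846), a call lost without OK107 a (adjusted p = 0.0971) or OK107 b (0.0689).

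Glial genes with a value in every library ran in the same order over the groups. The glial list held 10 genes, of which 9 had such values, and none was at 0 anywhere. Summed FPKM of these 9 was 222 and 231 in OK107, 466 and 558 in Tdc2, 105 in R57C10 and 3740 in whole brain. The gene left out, Eaat1, had another order, with R57C10 highest of the tagged libraries. It was at 27.7 FPKM in OK107 b, 39.3 and 61.9 in Tdc2, 67.4 in R57C10 and 596 in whole brain. In each of the 3 comparisons with whole brain 9 of 9 tested glial genes were lower in the tagged nuclei, with a median log2 difference of -3.05 in OK107, -2.19 in Tdc2 and -4.40 in R57C10. Whole brain exceeded the tagged libraries between 23.7-fold and 118-fold for Obp44a, and between 6.70-fold and 35.5-fold for the glial sum. Obp44a therefore amounted to between 20.0% and 33.1% of the glial sum in the 5 tagged libraries and to 79.8% in whole brain. The part of glial RNA in these differences was not tested. In the current annotation an exon of Obp44a overlaps an exon of Pabp2 on the other strand, and whether strand was used in counting is not given in the sources used here. Pabp2 was between 11.4 and 26.1 FPKM in all 6 libraries, with 11.7 in whole brain.

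**Figure D2:**
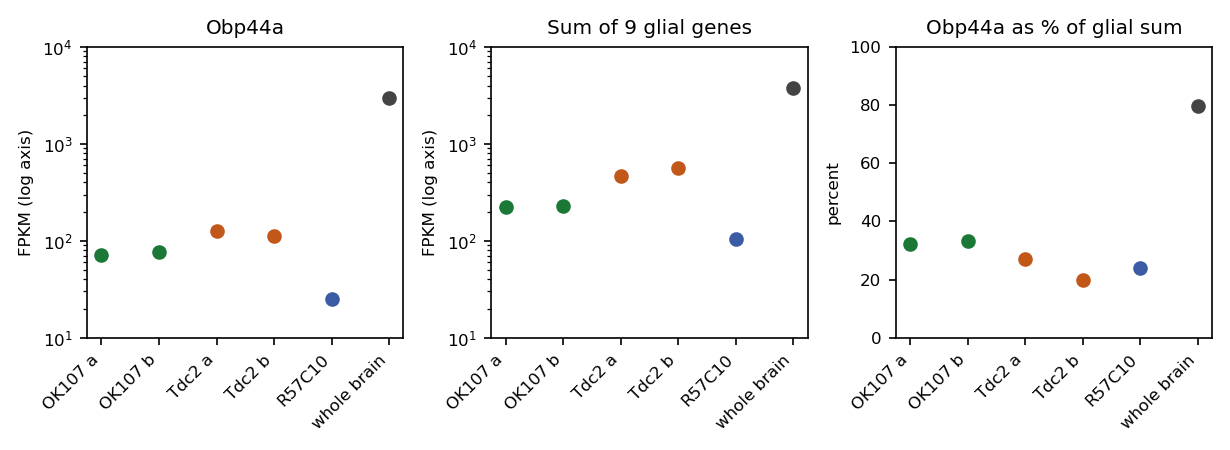
Level of Obp44a, summed level of 9 glial genes (both FPKM, log axes) and Obp44a as a percentage of that sum, with 1 point per library. Whole brain stands above all 5 libraries of tagged nuclei in each panel, and R57C10 is lowest in the left and middle panels.

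Obp18a was the only other member highest in whole brain. It was at 2.08 and 1.85 FPKM in OK107, at 4.87 and 7.74 in Tdc2, at 2.35 in R57C10 and at 26.8 in whole brain. Tagged nuclei lay below whole brain, with log2 differences of -3.23 in OK107 (SE 0.27, adjusted p = 0.00101), -1.96 in Tdc2 (SE 0.27, adjusted p = 0.00515) and -3.05 in R57C10 (SE 0.31, adjusted p = 0.00185). The difference of OK107 from Tdc2 was -1.27 (SE 0.22, adjusted p = 0.0108). It was 1.10 higher in Tdc2 than in R57C10 (SE 0.27, adjusted p = 0.0328), but not without OK107 a (adjusted p = 0.0501).

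Obp49a, which is made by support cells of taste sensilla and takes part in the suppression of sweet taste by bitter compounds, was at 11.8 and 10.7 FPKM in OK107, 30.9 and 36.5 in Tdc2, 11.7 in R57C10 and 1.62 in whole brain. R57C10 thus lay between the OK107 libraries, with Tdc2 above and whole brain below. In Tdc2 it was 1.44 above R57C10 (SE 0.16, adjusted p = 0.00413) and 3.73 above whole brain (SE 0.17, adjusted p = 0.000864). OK107 differed from Tdc2 by -1.50 (SE 0.13, adjusted p = 0.0021) and stood 2.22 above whole brain (SE 0.17, adjusted p = 0.000848), and in R57C10 2.28 above whole brain (SE 0.19, adjusted p = 0.00129).

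Obp19b, which takes part in the taste of amino acids, was at 0.852 and 1.14 FPKM in OK107, 3.78 and 2.36 in Tdc2 and 0.899 in R57C10, and was listed at 0 in whole brain. It passed as higher in Tdc2 than in R57C10 (1.08, SE 0.26, adjusted p = 0.0313), but not after quantile normalization (adjusted p = 0.0866). Its neighbour Obp19c was at 0.321 and 0.545 FPKM in OK107, 1.79 and 1.73 in Tdc2, 0.145 in R57C10 and 0.0141 in whole brain, so only Tdc2 lay above 1 FPKM. The next gene in the row, Obp19d, appears in the table as Pbprp2 and so is no member. Its level was 12.4 and 16.6 FPKM in OK107, 69.4 and 61.4 in Tdc2, 7.63 in R57C10 and 2.35 in whole brain. It was 2.94 higher in Tdc2 than in R57C10 (SE 0.20, adjusted p = 0.00195), and OK107 differed from Tdc2 by -2.11 (SE 0.17, adjusted p = 0.00169). At the other end of the row Obp19a stayed at or under 0.183 FPKM in all 6 libraries.

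The Obp56 group has 9 members, of which 5 reached 1 FPKM. Obp56e was at 7.59 and 8.84 FPKM in OK107, 45.8 and 75.8 in Tdc2, 5.90 in R57C10 and 0.0328 in whole brain. The whole brain value is that of very few implied reads, while every library of tagged nuclei lay above 5 FPKM. It was higher than in whole brain by 3.15 in OK107 (SE 0.31, adjusted p = 0.00151), by 5.86 in Tdc2 (SE 0.31, adjusted p = 0.000896) and by 2.74 in R57C10 (SE 0.36, adjusted p = 0.00352). Tdc2 was 3.12 above R57C10 (SE 0.31, adjusted p = 0.00328), and OK107 differed from Tdc2 by -2.71 (SE 0.25, adjusted p = 0.00241). An antisense RNA gene overlaps an exon of Obp56e in the current annotation, so its reads may be shared.

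Obp56g was at 6.18 and 7.03 FPKM in OK107, 15.1 and 11.1 in Tdc2, 4.39 in R57C10 and 0.0389 in whole brain, also at the level of very few reads. Its difference from whole brain was 2.87 in OK107 (SE 0.22, adjusted p = 0.000912), 3.75 in Tdc2 (SE 0.22, adjusted p = 0.000985) and 2.38 in R57C10 (SE 0.26, adjusted p = 0.00218). Tdc2 was 1.37 above R57C10 (SE 0.22, adjusted p = 0.0103). Obp56d was at 7.83 and 10.2 FPKM in OK107, 20.3 and 24.1 in Tdc2, 3.80 in R57C10 and 2.09 in whole brain. It was 2.27 higher in Tdc2 than in R57C10 (SE 0.21, adjusted p = 0.00301) and 2.90 higher than in whole brain (SE 0.21, adjusted p = 0.00145). Obp56d was also 1.05 higher in OK107 than in R57C10 (SE 0.21, adjusted p = 0.0262), a call lost after median centring (adjusted p = 0.0688), without OK107 a (0.0639) and without OK107 b (0.16).

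Of the low members of this group, Obp56h, whose reduced expression alters mating behaviour, was at 0.698 and 1.01 FPKM in OK107, 2.29 and 1.71 in Tdc2, 1.99 in R57C10 and 0.408 in whole brain. It was 1.08 higher in R57C10 than in whole brain (SE 0.25, adjusted p = 0.0177). Obp56a was at 1.25 and 1.13 FPKM in OK107, 2.38 and 1.06 in Tdc2, 0.590 in R57C10 and 0.401 in whole brain, and was the one tested member that passed in no comparison. Obp56b, Obp56c, Obp56f and Obp56i did not exceed 0.537 FPKM. Within the row from Obp56a to Obp56f, members thus ranged from a peak of 75.8 FPKM (Obp56e) to one of 0.0626 (Obp56c). Obp56g, Obp56h and Obp56i lie apart from this row in the current annotation.

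Several members are known as seminal fluid proteins of the male reproductive tract: Obp8a, Obp22a, Obp51a, Obp56e, Obp56f, Obp56g and Obp56i. Of these Obp22a, Obp56f and Obp56i were never above 1.25 FPKM. Obp8a was at 4.17 and 3.12 FPKM in OK107, 7.81 and 6.93 in Tdc2, 0.733 in R57C10 and 2.34 in whole brain. It was 2.27 higher in Tdc2 than in R57C10 (SE 0.21, adjusted p = 0.00289) and 1.41 higher in OK107 than in R57C10 (SE 0.21, adjusted p = 0.0126), the last not without OK107 a (adjusted p = 0.0659) nor after quantile normalization (0.0581). Obp51a was at 2.45 and 4.06 FPKM in OK107, 3.04 and 3.06 in Tdc2, 3.46 in R57C10 and 0.307 in whole brain. The 3 groups of tagged nuclei overlapped. All lay above whole brain, by 1.68 in OK107 (SE 0.27, adjusted p = 0.00564), 1.63 in Tdc2 (SE 0.27, adjusted p = 0.00764) and 1.77 in R57C10 (SE 0.31, adjusted p = 0.00768). Obp51a lies within hbs on the other strand in the current annotation, and hbs was between 7.76 and 23.6 FPKM.

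Obp57a, Obp57b and Obp57c lie side by side and had another order, in which OK107 and Tdc2 stood above R57C10 and whole brain. Obp57c was at 13.4 and 12.0 FPKM in OK107, 17.8 and 18.2 in Tdc2, 2.75 in R57C10 and 1.59 in whole brain. Obp57b was at 10.2 and 7.73 in OK107, 4.28 and 7.44 in Tdc2, 1.03 in R57C10 and 1.02 in whole brain, and Obp57a at 3.30 and 4.44, 2.70 and 3.80, 0.361 and 0.201 in the same order of libraries. Their summed level was 26.9 and 24.2 FPKM in OK107 and 24.8 and 29.5 in Tdc2, against 4.15 in R57C10 and 2.81 in whole brain.

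Against R57C10 the OK107 nuclei were higher by 1.87 for Obp57c (SE 0.15, adjusted p = 0.00445), 2.28 for Obp57b (SE 0.33, adjusted p = 0.0121) and 1.83 for Obp57a (SE 0.25, adjusted p = 0.0107). In Tdc2 the differences from R57C10 were 2.34 for Obp57c (SE 0.15, adjusted p = 0.00186), 1.72 for Obp57b (SE 0.33, adjusted p = 0.016) and 1.63 for Obp57a (SE 0.25, adjusted p = 0.00912). All 3 genes kept these calls under both other scalings. With no filter on low levels Obp57c kept both calls, while Obp57a and Obp57b lost both. Between OK107 and Tdc2, Obp57a and Obp57b did not pass (adjusted p = 0.446 and 0.136). Obp57e, a gene of taste sensilla, was at or under 0.262 FPKM throughout.

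The 4 members named Obp99 differed in level. Obp99c was at 6.36 and 8.51 FPKM in OK107, 31.2 and 40.4 in Tdc2, 5.77 in R57C10 and 12.7 in whole brain. It was 2.43 higher in Tdc2 than in R57C10 (SE 0.24, adjusted p = 0.00328) and 1.41 higher than in whole brain (SE 0.24, adjusted p = 0.00835), and OK107 differed from Tdc2 by -2.13 (SE 0.20, adjusted p = 0.00229). R57C10 differed from whole brain by -1.02 (SE 0.27, adjusted p = 0.0286), which did not hold after median centring (adjusted p = 0.0597). Obp99c shares exon sequence with Gycalpha99B on the other strand, which was between 24.1 and 57.9 FPKM. Obp99a was at 0.340 and 0.0643 FPKM in OK107, 3.54 and 5.47 in Tdc2, 0.300 in R57C10 and 1.25 in whole brain. Its level in Tdc2 was 2.06 above R57C10 (SE 0.28). This difference is given as a description, since among tagged nuclei the gene entered the test through Tdc2 alone. Obp99b and Obp99d peaked at 1.09 and 1.19 FPKM and were not tested.

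Marker sums of photoreceptors, fat body, muscle and hemocytes were also highest in Tdc2 among the tagged nuclei. The 13 photoreceptor genes summed to 1599 and 1602 FPKM in OK107, 6470 and 5523 in Tdc2, 831 in R57C10 and 550.7 in whole brain, and 13 of 13 were higher in Tdc2 than in R57C10. The 8 fat body genes summed to 142 and 140 FPKM in OK107, 6630 and 5840 in Tdc2, 465 in R57C10 and 4528 in whole brain. Muscle genes (8 of 9 with a value everywhere) summed to 95.9 and 96.9 FPKM in OK107, 123 and 288 in Tdc2, 47.1 in R57C10 and 62.8 in whole brain. Hemocyte genes (5 of 6) summed to 10.1 and 9.38 in OK107, 30.3 and 46.5 in Tdc2, 7.61 in R57C10 and 145 in whole brain. No photoreceptor, fat body or muscle gene was at 0 in any library, and of the hemocyte genes He was at 0 in both OK107 libraries. Single genes varied. Against Tdc2, 6 of 7 tested fat body genes, 3 of 9 muscle genes and 4 of 4 hemocyte genes passed as lower in OK107, and none as higher. By level the muscle gene bt was higher in OK107 (22.8 and 22.3 FPKM) than in Tdc2 (7.89 and 17.1). The hemocyte gene Pxn, which is not in the sum, was at 26.7 and 31.9 in Tdc2 and 58.0 in R57C10. The part of such tissues in the levels of the members was not tested.

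**Figure D3:**
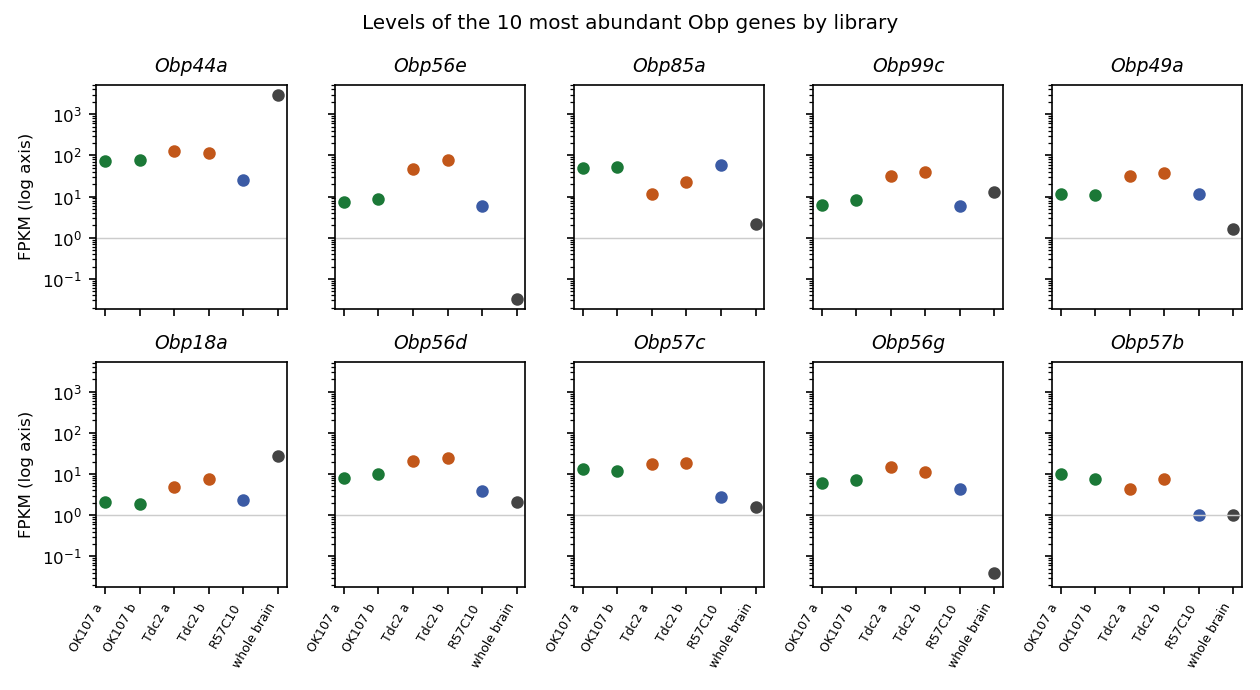
Level in FPKM (log axis) of the 10 Obp genes that reached 10 FPKM, with 1 point per library and a grey line at 1 FPKM. The Tdc2 points lie above the OK107 and R57C10 points for Obp44a, Obp56e, Obp99c, Obp49a, Obp18a, Obp56d, Obp57c and Obp56g, and below them for Obp85a.

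Obp83g reached 1 FPKM in OK107 alone. It was at 5.19 and 5.46 FPKM in OK107, was listed at 0 in Tdc2 a, and was at 0.358 in Tdc2 b, 0.139 in R57C10 and 0.114 in whole brain. The other libraries are thus at the level of a few reads. The log2 difference of OK107 was 2.47 from R57C10 (SE 0.23), 2.44 from Tdc2 (SE 0.19) and 2.50 from whole brain (SE 0.24). These are given as a description, since the gene entered the test through OK107 alone, and with no filter the difference from R57C10 did not pass (adjusted p = 0.0591). The gene beside it, Obp83ef, was at 0.235 and 0.227 FPKM in OK107, 0.900 and 1.06 in Tdc2, 0.178 in R57C10 and 0.360 in whole brain, so both OK107 libraries lay below both Tdc2 libraries. In the current annotation Obp83ef shares exon sequence with Obp83cd on the other strand, so reads may be shared. Obp83cd was at 0.361 and 0.648 FPKM in OK107, 0.996 and 1.15 in Tdc2, 0.389 in R57C10 and 0.501 in whole brain. The summed level of 7 cuticle and chitin-binding genes was also highest in OK107. It was 619 and 689 FPKM there, against 41.5 and 172 in Tdc2, 34.0 in R57C10 and 27.8 in whole brain. Of these 7 genes, 4 passed as higher in OK107 than in Tdc2 and 1 as lower. TwdlG was at 6.85 and 6.10 FPKM in OK107 and at 12.0 and 14.0 in Tdc2. Tdc2 b had the highest cuticle sum and the highest Obp83g level of the 4 libraries other than OK107. Their part in the Obp83g level was not tested.

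Among the members that reached 1 FPKM, Obp85a was the only one with its highest level in R57C10. It was at 50.7 and 53.6 FPKM in OK107, 11.3 and 22.3 in Tdc2, 59.2 in R57C10 and 2.19 in whole brain. R57C10 lay above both OK107 libraries without passing the test (adjusted p = 0.731), Tdc2 lay below them and whole brain lowest. Tdc2 differed from R57C10 by -1.83 (SE 0.37, adjusted p = 0.0186), and OK107 stood 1.65 above Tdc2 (SE 0.30, adjusted p = 0.0123). Above whole brain it stood by 4.06 in OK107 (SE 0.37, adjusted p = 0.00125), 2.41 in Tdc2 (SE 0.37, adjusted p = 0.00678) and 4.24 in R57C10 (SE 0.43, adjusted p = 0.00183). In the current annotation Obp85a lies wholly inside CG45263, a gene on the same strand, with no exon in common. CG45263 has no row in the table, so reads from unspliced RNA of the host gene and from Obp85a cannot be told apart. CG13027, whose current symbol is Obp73a and which is no member, had a similar order: 37.4 and 34.2 FPKM in OK107, 16.0 and 21.1 in Tdc2, 33.0 in R57C10 and 5.58 in whole brain.

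The table holds 8 further odorant-binding protein genes with values under other names, which are no members. Besides Pbprp2 and CG13027, described above, only Pbprp4 (Obp84a) reached 1 FPKM, with 2.18 and 3.31 FPKM in OK107, 1.72 and 1.26 in Tdc2, 2.35 in R57C10 and 3.15 in whole brain. Pbprp1 (Obp69a) did not exceed 0.984 FPKM. lush, whose product is needed to detect the male pheromone cis-vaccenyl acetate, did not exceed 0.393 FPKM, Os-E (Obp83b) 0.161, Pbprp3 (Obp83a) 0.159 and Pbprp5 (Obp28a) 0.484. Among the members, Obp59a, which serves humidity sensing in the antenna, was at 0.0381 FPKM in OK107 b and listed at 0 in the other 5 libraries. Of 14 chemosensory sensillum genes with a value in every library, between 3 and 5 reached 1 FPKM in any one library. Their summed level was 146 and 167 FPKM in OK107, 46.3 and 51.0 in Tdc2, 38.8 in R57C10 and 20.3 in whole brain, most of it PebIII in OK107, Tdc2 and whole brain. PebIII was at 112 and 136 FPKM in OK107, 32.5 and 31.8 in Tdc2, 4.30 in R57C10 and 12.2 in whole brain. By the median of the 14 genes R57C10 was instead highest, at 0.501 FPKM, against 0.0947 to 0.192 in the other libraries. Orco, the co-receptor of most odorant receptors, was between 0.219 and 0.582 FPKM. The members named Obp47, Obp50 and Obp58, 9 in all, did not exceed 0.362 FPKM.

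Counted by comparison, OK107 nuclei were set against R57C10 to ask what distinguishes Kenyon cells from neurons at large. Of 19 tested members 7 were higher in OK107 (Obp83g, Obp57a, Obp57b, Obp57c, Obp44a, Obp8a and Obp56d) and none lower. Obp83g is counted here although it was bound to differ. Of all 9585 genes tested 24.9% passed, 21.4% as higher and 3.56% as lower. The median member differed by 0.41 and the median gene by 0.30. After median centring the median gene lay at -0.15, with 792 genes higher and 1562 lower, and 6 members were higher and 1 (Obp56h) lower. After quantile normalization 759 genes were higher and 663 lower, and 5 members were higher and 1 lower. At an unadjusted p under 0.05, 7 were higher and 1 lower in limma. The share of all genes at that threshold was not counted, so these numbers cannot be set against it. Without OK107 a 4 of 18 members passed (5.77% of all genes), and without Tdc2 a or Tdc2 b 11 of 17 (60.8% of all genes each). With no filter on low levels 2 of 42 passed, against 5.83% of all genes, so the members' share was no higher than that of all genes in that setting. OK107 and R57C10 share no date tag, and with the tag as a term 9 members were higher and 1 lower, while the share of all genes that passed was also larger, at 37.0%.

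Tdc2 nuclei were set against R57C10 to ask the same of octopaminergic neurons. Of 19 members 14 were higher in Tdc2 and 1 lower (Obp85a), against 20.6% and 15.2% of all 9585 genes (35.9% in all). The median member differed by 1.44 and the median gene by 0.03. After median centring 14 members were higher and 1 lower, with 1786 genes higher and 2272 lower. Quantile normalization gave 13 and 1 members, with 1631 and 1973 genes. Obp19c and Obp99a are counted as higher although they were bound to differ. Members that did not pass were Obp83g, Obp51a, Obp56a and Obp56h. Between Tdc2 b and R57C10, which share the later date tag, 16 of the 19 were higher in Tdc2 b, with a median difference of 1.56, against 50.8% of all tested genes and a median of 0.01. With no filter 8 of 42 passed, 7 higher and 1 lower, against 10.0% of all genes.

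OK107 and Tdc2 were compared with each other as the only groups with 2 libraries each. Of 19 members 2 were higher in OK107 (Obp83g and Obp85a) and 13 lower, against 34.3% and 14.0% of all 9585 genes (48.3% in all). The median member lay at -0.86 and the median gene at 0.28. Lower in OK107 were also Obp57c, Obp8a, Obp56d, Obp56g, Obp56h, Obp19b and Obp19c, besides Obp44a, Obp18a, Obp49a, Obp56e, Obp99a and Obp99c. Obp83g, Obp19c and Obp99a are counted here although they were bound to differ. Without OK107 a or without OK107 b 8 of 18 members passed, 1 higher and 7 lower, against 13.9% and 14.2% of all genes. With no filter 8 of 42 passed, against 16.8% of all genes. Obp57c, Obp44a, Obp56h, Obp56g and Obp19b lost their calls without either OK107 library, Obp19c without OK107 a (adjusted p = 0.078) and Obp8a without OK107 b (adjusted p = 0.128). After median centring the same numbers of members passed, 2 higher and 13 lower, with 1362 genes higher and 2073 lower, and likewise after quantile normalization, with 1809 and 1772. Between both OK107 libraries and Tdc2 a, which share the earlier date tag, 5 of the 19 were higher in OK107, with a median difference of -0.93, against 68.8% of all tested genes and a median of 0.29.

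Each group of tagged nuclei had more members higher than lower relative to the dissected brain. In OK107 11 of 19 were higher than in whole brain and 3 lower, against 31.5% and 22.0% of all 9605 genes (53.5% in all). In Tdc2 15 were higher and 2 lower, against 21.2% and 29.1% (50.3% in all), and 16 and 2 after median centring, when 2742 genes were higher and 1943 lower. In R57C10 7 were higher and 4 lower, against 22.3% and 32.8% (55.1% in all), and 9 and 2 after median centring, when 3078 genes were higher and 2068 lower. After quantile normalization 6 members were higher and 3 lower in R57C10, with 2461 and 2068 genes. These counts include Obp83g in OK107 and Obp19c in Tdc2, which were bound to differ. Obp44a and Obp18a were lower in all 3 groups of tagged nuclei. Obp49a, Obp51a, Obp56e, Obp56g, Obp57c and Obp85a were higher in all 3, although for Obp57c in R57C10 (0.54, SE 0.17, adjusted p = 0.048) the call was lost without OK107 a or b (adjusted p = 0.182 each). Obp8a in R57C10 also lost its call without OK107 a (adjusted p = 0.0511) or OK107 b (0.0506), and Obp99a in OK107 without OK107 a (0.0676) or OK107 b (0.174). The 3 comparisons share the single whole brain library. Median differences of the tested members were 1.68 in OK107, 1.63 in Tdc2 and 0.18 in R57C10, and those of all genes 0.10, -0.15 and -0.22. The 11 of 19 called in R57C10 lay near the share of all genes. With no filter 9 of 42 members passed in OK107 (20.8% of all genes), 8 in Tdc2 (15.0%) and 5 in R57C10 (19.9%), so the OK107 count was near the share of all genes and the R57C10 count below it. Without OK107 a 11 of 18 passed in OK107 (30.4% of all genes), 17 in Tdc2 (34.3%) and 9 in R57C10 (40.2%).

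**Figure D4:**
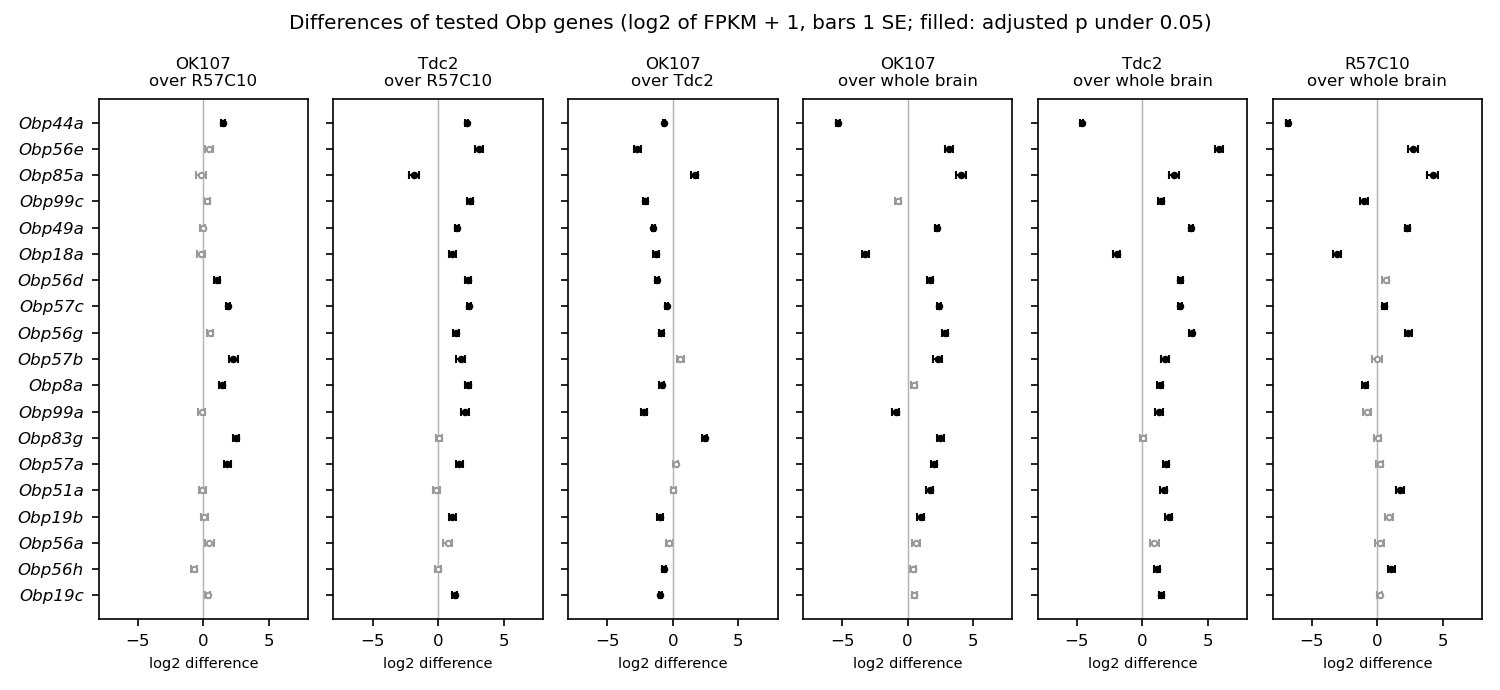
Log2 difference of FPKM + 1 for the 19 tested Obp genes (rows, by highest level) in 6 comparisons (panels, the group named first over the other), with bars of 1 SE and filled points at an adjusted p under 0.05. In the Tdc2 over R57C10 panel 14 members lie to the right of 0 with filled points, and in the panels against whole brain Obp44a and Obp18a lie to the left.

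The authors' deposited table gives q-values for pairs of single libraries and calls fewer genes. For Tdc2 b over R57C10 the authors' deposited table lists 11 members, all higher, of 27 with a fold change, against 14.7% of all genes with one (12.2% higher). The smallest q-values for that pair in the authors' deposited table belong to Obp56e (log2 fold change 3.68, q = 1.06e-05) and Obp99a (log2 fold change 4.19, q = 0.000299). For OK107 b over R57C10 the authors' deposited table lists 5 members, all higher, of 24 (11.2% of all genes, 9.81% higher): Obp83g, Obp57a, Obp57b, Obp57c and Obp44a. For Tdc2 a over OK107 a, the reverse direction to the one above, 7 of 23 are listed in the authors' deposited table, 5 higher in Tdc2 a and 2 lower (12.5% of all genes, 4.71% and 7.77%). For whole brain over R57C10, again the reverse direction, the authors' deposited table lists 7 of 23, with Obp44a and Obp18a higher in whole brain and Obp85a, Obp56g, Obp49a, Obp51a and Obp56e lower (14.7% of all genes, 6.70% and 8.01%). No member is listed between OK107 b and OK107 a, where the authors' deposited table calls 0.172% of all genes, 0.134% as higher and 0.0382% as lower.

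Isoforms were listed for 8 members with more than 1. Of these Obp57c had the clearest split, with isoform RA at 11.9 and 10.3 FPKM in OK107, 17.1 and 16.6 in Tdc2, 2.52 in R57C10 and 1.24 in whole brain. Its isoform RB was at 1.46 and 1.77, 0.691 and 1.66, 0.234 and 0.347 in the same order, so RA was the higher in every library. Obp56g was divided unevenly between its isoforms: RB was at 3.34 FPKM in OK107 a and listed at 0 in OK107 b, although the gene had 6.18 and 7.03. Isoform levels of such short genes are therefore not compared further.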

How the data were processed

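Nuclear RNA was amplified and sequenced by the authors, per the labels' protocols. The submitters' processing notes name CASAVA 1.8, TopHat 1.4.0, Cuffdiff 1.3.0, bedtools 2.15 and genome build dm3. The deposited FPKM values for genes and isoforms come from Cuffdiff, per the file headers, which give NA for estimates without an OK status. The log2 fold changes used are the authors' own. The deposited p-values are the authors' q-values for pairs of libraries, and they are listed only under 0.05. The tests were planned for FPKM or counts, and read counts were not analysed here.

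Columns were assigned to groups by driver name, and 8 further FPKM columns (4 per table), which name the same libraries again, were not used. The test on log2(FPKM + 1) was that of limma 3.58.1, run in R 4.3.3 with robust moderation and a mean trend. The 3 comparisons among tagged nuclei were fitted on 5 libraries (9585 genes) and those with whole brain on 6 (9605), with 2 residual degrees of freedom each. The code was tested on simulated data. Gene neighbours and current symbols come from the annotation of a later assembly (Ensembl release for BDGP6 and RefSeq Release 6), with all 42 members matched by CG number, so no coordinates are given. Members are all genes named Obp and a digit. Values in every library are given for those at 10 FPKM or more or called in any comparison. The members, lists and tests were chosen with earlier results of these data known. No protein or promoter sequence was used here. Alternatives were pseudocounts of 0.1 and 5, other filters, median centring, quantile normalization, plain eBayes, date tag or spike-in status as a term, leaving out each OK107 and Tdc2 library, and counting family genes under other names. Only the Tdc2 pair holds both date tags. The tag term therefore equals the difference between Tdc2 a and Tdc2 b, and the OK107 pair alone gives the spread in that fit (1 residual degree of freedom).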

Additional observations from a re-analysis of the deposited data

How the results depend on the processing

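Of 90 recounts of the members that passed (6 comparisons, 15 alternatives each), 78 stayed within 1.5 times the count reported. With no filter on low levels, where 14896 or 14868 genes were tested, the counts were 2 for OK107 over R57C10, 8 for Tdc2 over R57C10, 8 for OK107 over Tdc2, 5 for R57C10 over whole brain, 9 for OK107 over whole brain and 8 for Tdc2 over whole brain, of 42 members each, while between 5.83% and 20.8% of all genes passed. With the filter at 5 FPKM 11 of 12 tested members passed for Tdc2 over whole brain (56.4% of all genes), the lower count following from fewer members tested. Leaving out single libraries gave 4 to 11, 13 to 15, 8 to 15, 9 to 14, 11 to 16 and 17 to 17 calls among 17 or 18 members in the same order of comparisons, while between 5.12% and 75.4% of all genes passed. Other causes were not tested. None of the 79 calls of single members changed sign in any alternative, and 69 held under both other scalings and both batch terms. With no filter on low levels 46 of the 79 were lost. Only 32 held in every alternative that tested them. CG13027 was added after its values were seen. Counting it with the other renamed genes gave 8 to 19 calls of 22 genes, while between 24.9% and 55.1% of all genes passed. For R57C10 over whole brain 13 of the 22 passed (59.1%), near the 55.1% of all genes. No paired analysis was possible because the columns carry no replicate numbers. Depth limits the 18 members under 1 FPKM, which were tested only with no filter.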
